A study of Mus musculus with 18 samples.

Results

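The genes described here take up long-chain fatty acids into heart muscle and oxidise them in mitochondria. The list names 33 of them, from the fatty acid carrier Cd36 to the lipase Pnpla2, and a gene was counted as measured where the array annotation gave a probe set to that symbol alone. By that rule 31 of the 33 were measured, on 62 probe sets, out of 18193 genes measured in all. Each gene is represented by its probe set with the highest mean over the 18 arrays, and in all 31 genes that mean was no lower than the median probe set of the array. Acsl1 and Cpt1b had no probe set of their own. The list was drawn up by function and not by how the genes moved, although earlier results of these data were known.

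Whole hearts came from control animals and from mice lacking Kir6.1, the potassium channel subunit encoded by Kcnj8, here called mutants. The mice received PBS alone, with hearts taken after 3 h, or 0.5 µg of lipopolysaccharide (LPS, the bacterial endotoxin) in PBS, with hearts taken after 30 min or 3 h. The 2 genotypes and 3 conditions give 6 groups of 3 arrays, and the labels give no strain, sex or age and do not say in which cells Kir6.1 was lost. The design speaks of 3 mice per genotype, but no label ties a replicate number to an animal of its own. The spread behind the p-values is that between these arrays, and it may be technical.

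Heart muscle obtains most of its ATP from fatty acids. Lipoprotein lipase frees them from circulating lipoproteins, CD36 and FATP1 bring them in, the carnitine shuttle carries their acyl groups across the inner mitochondrial membrane, and repeated rounds of dehydrogenation, hydration, a further dehydrogenation and thiolysis shorten them. The electrons pass through the electron transfer flavoprotein to the respiratory chain. PPARα, a nuclear receptor that senses fatty acids, and its coactivator PGC-1α switch many of these genes on, and endotoxin is known for lowering several of them in mouse heart.

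The deposited values are log2 intensities. Kcnj8 measured 4.35 to 5.36 on mutant arrays and 8.35 to 8.90 on control arrays, so the genotypes matched their labels. The arrays were hybridized on 3 days. Mutant LPS 3 h replicates 1 and 3 alone made up day 2, and every LPS 30 min array belonged to day 3. The PBS arrays, the control arrays of LPS 3 h and replicate 2 of the mutants at that time shared day 1. The difference between 3′ and 5′ control probe sets (mean of Gapdh and Actb), which is high when the 5′ ends of transcripts are poorly represented, was 1.37 and 1.09 on the day-2 arrays and 0.13 to 0.44 on the other 16. The 12 cardiomyocyte markers had mean log2 values of 13.26 and 13.21 on the day-2 arrays and 13.32 to 13.53 on the others, with Ttn at 11.9 and 11.67 next to 12.61 to 13.14. Markers of other cells also stood apart on the day-2 arrays. The endothelial marker Pecam1 was 6.44 and 5.99 there (8.29 to 8.98 on the others), and the fibroblast marker Dcn was 11.36 and 11.3 (12.24 to 12.61). Not all markers of these cells were low: endothelial Vwf was 9.21 and 8.97 (at most 8.85), and fibroblast Dpt was 10.69 and 10.59 (at most 10.31). The endothelial markers had means of 8.60 and 8.34 (8.54 to 9.42), and the fibroblast markers 9.77 and 9.64 (9.71 to 10.33). On replicate 1 both means thus lay within the range of the others. The neutrophil marker S100a8 was 10.85 and 10.99 (5.12 to 8.45), and S100a9 was 10.91 and 11.43 (at most 8.68). The mean of the 9 measured neutrophil markers was 5.92 and 6.11 (4.47 to 5.53). Of these neutrophil markers only S100a8 and S100a9 lay above the other arrays on both day-2 arrays. Mpo, Csf3r, Cxcr2, Mmp8, Camp and Ltf lay within the range of the others, and Elane exceeded it on replicate 3 only. Mutant LPS 3 h replicate 2 carried the highest mean of the 7 measured adipocyte markers, 7.28 against 5.06 to 6.24 elsewhere, with Adipoq at 9.92. It also had the airway secretoglobin Scgb1a1 at 9.90, which was 8.80 on replicate 3 and 3.56 to 3.94 on the remaining arrays, while the alveolar marker Sftpc stayed between 4.53 and 5.39 throughout. For the LPS 3 h mutants replicate 2 is therefore shown apart from replicates 1 and 3.

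The fatty acid genes were steady on 16 of the 18 arrays and low on the other 2. On those 16 arrays the median deviation of the 31 genes from the control PBS mean lay between -0.07 and 0.07 on the log2 scale. On mutant LPS 3 h replicates 1 and 3 it was -0.53 and -0.36. In whole hearts fewer cells of a type and less RNA per cell cannot be told apart. Over the 16 arrays 20 of the 31 genes spanned less than 0.5 from lowest to highest, and the remaining 11 included Ucp3 with a span of 1.65 and Ppargc1a with 1.28. The narrowest was Fabp3, the heart fatty acid binding protein, which lay between 13.73 and 13.84 on the 16 arrays. In 20 of 31 genes (64.5%) both day-2 arrays lay below all 16 others, as they did in 16.7% of all genes. In 0 of 31 did both lie above, compared with 12.6% of all genes.

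**Figure D1:**
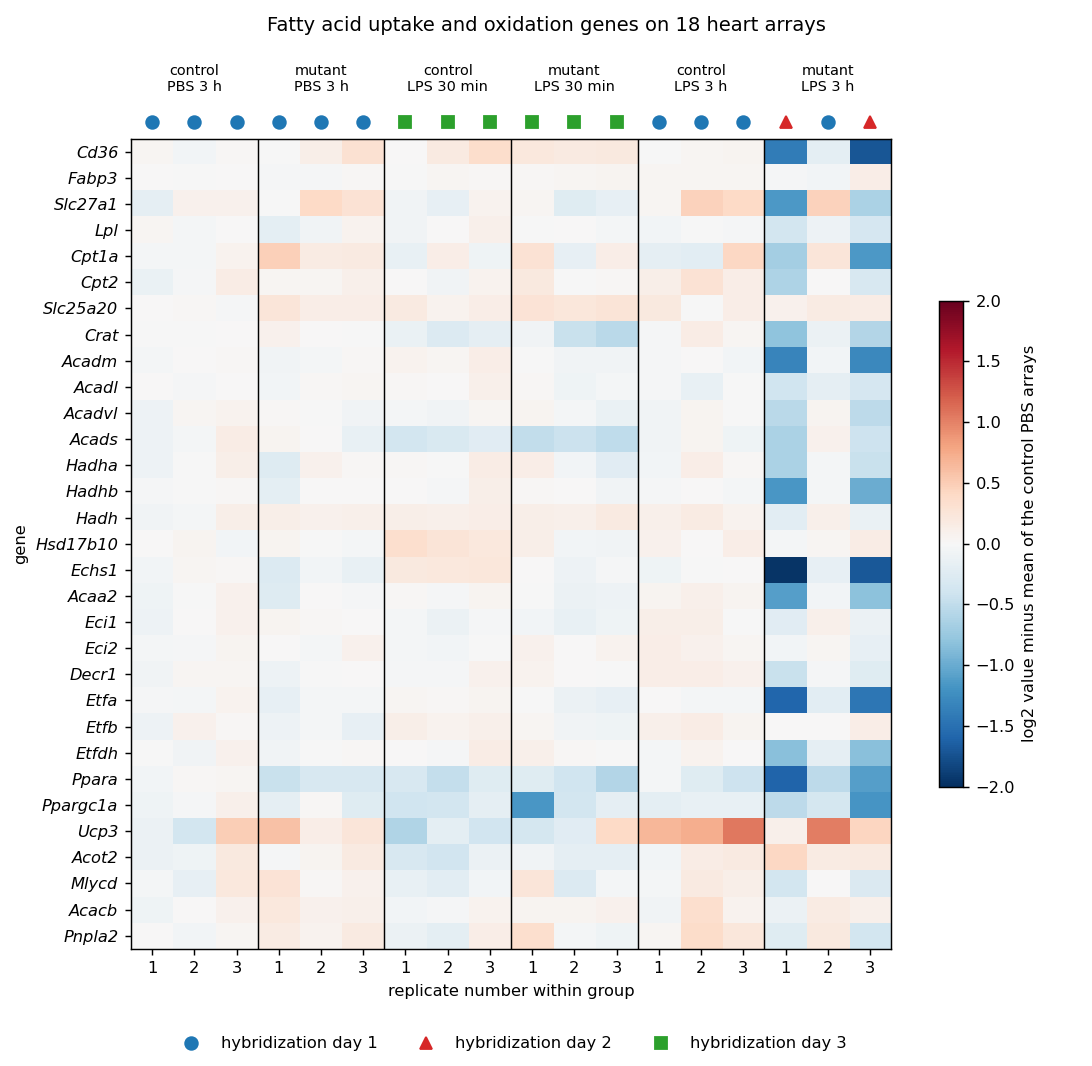
Deviation of each of 31 fatty acid uptake and oxidation genes (vertical axis) on each of 18 arrays (horizontal axis, replicate number within group) from the mean of the control PBS arrays, in log2 units, with blue for lower and red for higher; symbols above the columns give the hybridization day. The columns of mutant LPS 3 h replicates 1 and 3 are blue over most rows, with medians of -0.53 and -0.36, and the Ucp3 row is red in the control LPS 3 h columns and in mutant replicate 2.

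PPARα binds, with its partner RXR, to repeats of the element AGGTCA. The 250 bases before the annotated start were searched for it on either strand in the RefSeq promoters of build GRCm38.p6, where 28 of the measured genes matched with 31 promoters. It occurred in 6 of these 31 promoters, those of Acadm, Acadvl, Cd36, Cpt1a, Echs1 and Ucp3, and in 14.0% of all 32851 promoters. The full direct repeat with 1 base between the copies (DR1) was found in 0 of the 31 promoters and in 0.0335% of all promoters. These letters say nothing about binding in these hearts. The promoters below are shown for Ucp3, which had the largest change of the 31 genes 3 h after LPS in controls, for Cd36, which had the largest fitted fall in mutants, and for the textbook PPARα target Acadm, with the element in capitals (TGACCT is its reverse complement).
Ucp3 promoter, chr7:100472741-100472990, plus strand: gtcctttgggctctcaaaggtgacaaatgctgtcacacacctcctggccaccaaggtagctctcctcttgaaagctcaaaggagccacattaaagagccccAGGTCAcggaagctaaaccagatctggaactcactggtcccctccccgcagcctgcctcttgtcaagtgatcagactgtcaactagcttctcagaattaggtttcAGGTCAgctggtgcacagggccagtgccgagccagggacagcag
Cd36 promoter, chr5:17835897-17836146, minus strand: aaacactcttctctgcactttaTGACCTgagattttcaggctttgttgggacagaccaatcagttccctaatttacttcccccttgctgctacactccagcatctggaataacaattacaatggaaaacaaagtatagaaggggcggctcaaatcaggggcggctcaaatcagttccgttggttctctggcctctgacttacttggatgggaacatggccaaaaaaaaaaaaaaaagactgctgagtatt
Acadm promoter, chr3:153944644-153944893, minus strand: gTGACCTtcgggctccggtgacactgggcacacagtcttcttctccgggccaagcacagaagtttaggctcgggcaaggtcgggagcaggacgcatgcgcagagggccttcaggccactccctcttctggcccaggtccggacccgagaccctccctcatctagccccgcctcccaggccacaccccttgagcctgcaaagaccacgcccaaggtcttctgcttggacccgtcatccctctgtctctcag

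The comparison of LPS 3 h with PBS in control hearts asks how endotoxin acts on these genes with Kir6.1 present. Its 6 arrays share a hybridization day, but the PBS arrays came from a lot of their own, so lot and treatment cannot be told apart. Most of the pathway lay close to its PBS level. By limma with Benjamini-Hochberg adjustment 0 of 31 passed, against 0.775% of all genes. The unadjusted p was below 0.05 for 1 of the 31 and for 4736 of all 45037 probe sets. The median change was 0.05, against -0.01 over all genes. Without the 2 day-2 arrays, which widen the pooled spread, again 0 of 31 passed, with 3.96% of all genes past the threshold. In that fit the 95% confidence interval of 28 of the 31 changes lay within 0.5 log2 units of 0, the exceptions being Ppargc1a, Slc27a1 and Ucp3. The arrays of the groups did not overlap in 4 of 31 genes (20.8% of all genes): Fabp3, Decr1 and Ucp3 were higher after LPS, and Ppargc1a was lower.

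Ucp3, the muscle uncoupling protein of the inner mitochondrial membrane and a known PPARα target, moved most. Control PBS hearts had log2 values of 7.57, 7.33 and 8.18, and control LPS 3 h hearts had 8.36, 8.42 and 8.75. All 3 LPS arrays lay above all 3 PBS arrays. The change was 0.82 ± 0.26 (SE, n = 3 against 3) with a limma adjusted p of 0.210, and 0.0575 without the day-2 arrays, so it did not pass in either fit. In mutants PBS values were 8.28, 7.82 and 7.94, replicate 2 after 3 h of LPS had 8.72, and replicates 1 and 3 had 7.79 and 8.12. Replicate 2 thus lay above the mutant PBS arrays, by 0.71 from their mean. Of the day-2 arrays replicate 3 lay among the PBS arrays and replicate 1 just below them. The other Ucp3 probe set changed by 0.74 in controls and by 0.84 on mutant replicate 2, and by -0.88 and -1.13 on replicates 1 and 3.

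The uptake genes did not pass in controls. Cd36, the main fatty acid carrier of the cell surface, had 12.32, 12.22 and 12.30 after PBS and 12.28, 12.33 and 12.34 after LPS 3 h, a change of 0.03 with a 95% interval of -0.16 to 0.23 without the day-2 arrays. The 2 groups overlapped. Lpl, lipoprotein lipase, lay between 13.64 and 13.73 on these 6 arrays. Slc27a1, which encodes the transporter and acyl-CoA synthetase FATP1, had 7.89, 8.16 and 8.16 after PBS and 8.11, 8.53 and 8.48 after LPS. Its ranges overlapped (0.30, 95% interval 0.02 to 0.58, adjusted p = 0.236 by limma without the day-2 arrays). The other Slc27a1 probe set, of nearly the same level, changed by -0.01. Of the regulators, Ppara had 9.0, 9.08 and 9.11 after PBS and 9.02, 8.81 and 8.65 after LPS, and Ppargc1a, which encodes PGC-1α, had 9.40, 9.46 and 9.60, then 9.29, 9.33 and 9.34. Ppara overlapped by 1 array and Ppargc1a did not overlap, with changes of -0.24 and -0.16 that did not pass. The other Ppara probe sets lay below their control PBS mean on every control LPS 3 h array. They differed by -0.19, -0.41 and -0.40, and by -0.29, -0.31 and -0.65. The other Ppargc1a probe sets had mean changes of -0.07, -0.13, 0.03 and -0.11. Not all of these lay below their control PBS mean on every control LPS 3 h array.

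In mutants the LPS 3 h comparison split by array. On replicate 2, hybridized with the PBS arrays, the pathway stayed near its PBS level: 16 of 31 genes lay below the mutant PBS mean and 15 above, and 0 lay more than 0.5 below. On replicate 1, 29 of 31 lay below, 15 of them by more than 0.5 and 8 by more than 1, with a median of -0.50. On replicate 3 the counts were 26, 13 and 6, with a median of -0.40. With all 3 arrays in the fit, 11 of 31 genes fell and 0 rose by limma, against 16.1% of all genes that fell. The median change was -0.32, and 0.07 over all genes. With replicate 2 as the sole array of its group, the median change of the 31 genes was -0.002, and 0.005 over all genes. Without replicate 2, 22 of 31 fell, against 22.0% of all genes. The count was 7 without replicate 1 and 2 without replicate 3 (15.6% and 6.09% of all genes), and 4 and 3 without mutant PBS replicates 2 and 3 (8.27% and 8.56%). Hybridization day, the 3′ to 5′ difference, several of the cell markers named above and these values moved together, and their part in the result was not tested.

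**Figure D2:**
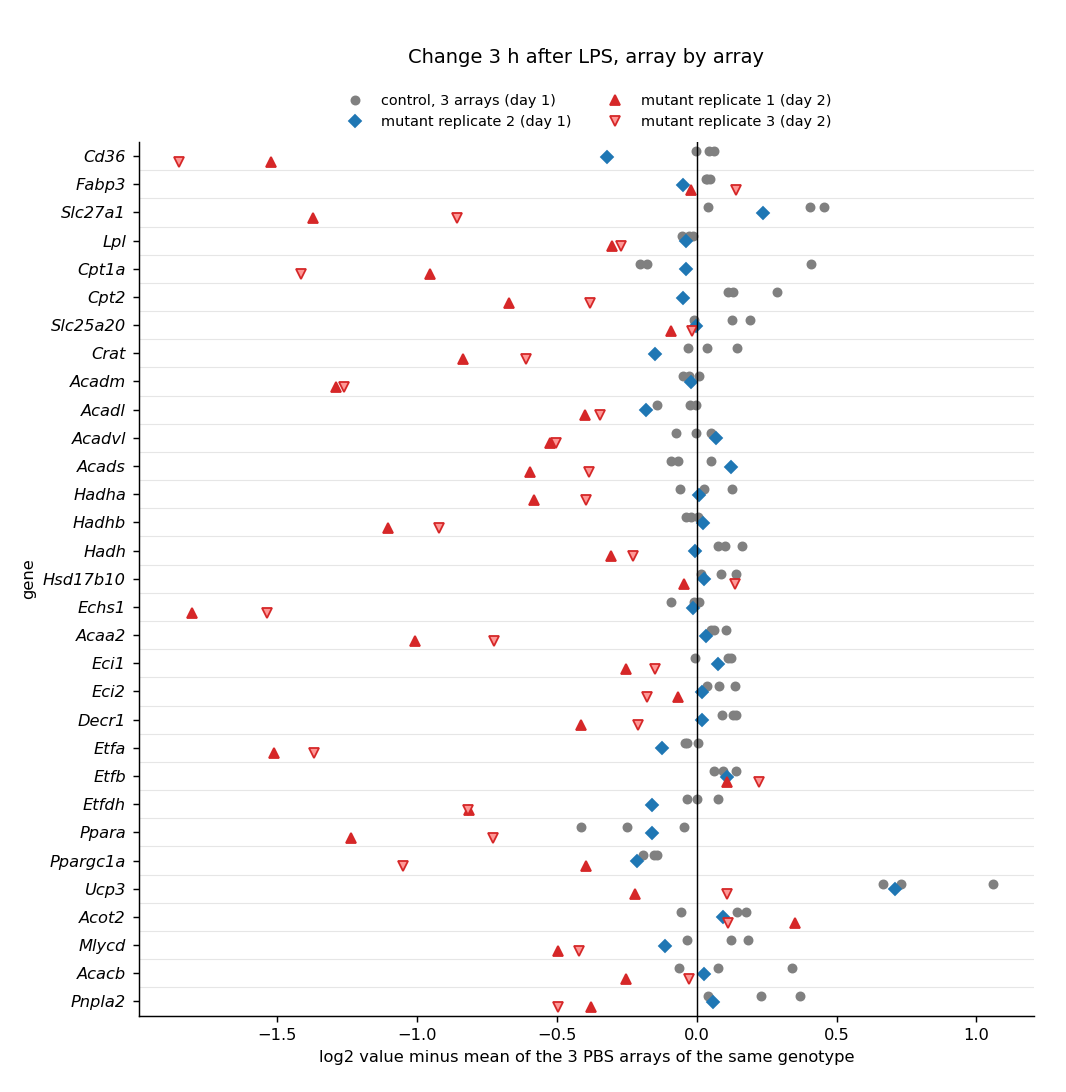
Log2 value on each LPS 3 h array minus the mean of the 3 PBS arrays of the same genotype (horizontal axis) for each of 31 fatty acid genes (vertical axis); grey circles are the control arrays, the blue diamond is mutant replicate 2, and red triangles are mutant replicates 1 and 3. Diamonds lie between -0.32 and 0.71, near the grey circles, while triangles reach -1.80 on replicate 1 and -1.85 on replicate 3.

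Among the uptake genes, 1 of 4 fell in the mutant LPS 3 h group. Cd36 had 12.27, 12.39 and 12.58 after PBS and 10.89, 12.09 and 10.56 on LPS 3 h replicates 1, 2 and 3. All 3 LPS arrays lay below the PBS arrays, with differences from their mean of -1.52, -0.32 and -1.85. The change was -1.23 ± 0.25 (SE, n = 3 against 3, limma adjusted p = 0.0055), and with replicate 2 alone it was -0.32 with a 95% interval of -0.60 to -0.04 and an adjusted p of 0.133. Adipocytes also express Cd36, Lpl and Pnpla2, and the adipocyte marker mean was highest on replicate 2 (7.28, elsewhere 5.06 to 6.24). The Cd36 value of replicate 2, 12.09, was the lowest of the 16 arrays outside day 2. The part of adipocytes in these values was not tested. Slc27a1 had 8.06, 8.46 and 8.37 after PBS and 6.92, 8.53 and 7.44 after LPS, Lpl had 13.50, 13.62 and 13.76 and then 13.33, 13.59 and 13.36, and neither passed. The other Lpl probe set differed from its PBS mean by -1.58, -0.21 and -1.38 on replicates 1, 2 and 3. The other Slc27a1 probe set differed by 0.13, -0.13 and 0.03, so it was not low on the day-2 arrays. Fabp3 had 13.76, 13.73 and 13.92 after LPS, next to 13.76, 13.76 and 13.81 after PBS, so its day-2 arrays were not low.

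The carnitine shuttle showed the same split, with 2 of 4 genes past the threshold. Cpt1a, the liver-type carnitine palmitoyltransferase of the outer membrane, had 7.78, 7.45 and 7.48 after PBS and 6.62, 7.53 and 6.15 after LPS 3 h, and Crat, carnitine acetyltransferase, had 10.36, 10.28 and 10.26 and then 9.46, 10.15 and 9.69. Replicate 2 of Cpt1a lay inside the PBS range, and all 3 LPS arrays of Crat lay below it. The changes were -0.80 ± 0.26 and -0.53 ± 0.14 (limma adjusted p = 0.036 and 0.0188), and with replicate 2 alone -0.04 and -0.15. Cpt2, the inner-membrane enzyme, had 10.87, 11.50 and 11.16 after LPS against 11.52, 11.52 and 11.59 and missed the threshold (-0.37, limma adjusted p = 0.0514). Slc25a20, the carnitine-acylcarnitine carrier, had 11.33, 11.42 and 11.41 after LPS and 11.50, 11.38 and 11.39 after PBS, with replicate 1 just below the PBS arrays. Its other probe set differed from the PBS mean by -0.50, 0.02 and -0.25.

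Of the 4 acyl-CoA dehydrogenases, which open each round of oxidation, the medium-chain enzyme Acadm and the long-chain enzyme Acadl fell. Acadm had 12.94, 12.97 and 13.03 after PBS and 11.69, 12.96 and 11.72 after LPS 3 h. Replicate 2 sat among the PBS arrays and the day-2 arrays differed from their mean by -1.29 and -1.26, for a change of -0.86 ± 0.22 (limma adjusted p = 0.0154). Acadl had 12.74, 12.82 and 12.82 after PBS and 12.39, 12.61 and 12.44 after LPS (-0.31 ± 0.08, limma adjusted p = 0.0153). Here replicate 2 was also below the PBS arrays, with a difference of -0.18 from their mean and a 95% interval of -0.39 to 0.03. On replicates 1, 2 and 3 the very-long-chain enzyme Acadvl differed from its PBS mean by -0.53, 0.07 and -0.51, and the short-chain enzyme Acads by -0.60, 0.12 and -0.39. Neither passed.

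The enzymes of hydration, the further dehydrogenation and thiolysis gave 3 falls among 6 genes. Echs1, the short-chain enoyl-CoA hydratase, had 11.54, 11.76 and 11.67 after PBS and 9.85, 11.65 and 10.12 after LPS 3 h. Hadhb, the thiolase subunit of the trifunctional protein, had 13.11, 13.31 and 13.32 and then 12.14, 13.27 and 12.32, and the thiolase Acaa2 had 12.34, 12.60 and 12.57 and then 11.49, 12.54 and 11.78. In each of the 3 genes replicate 2 lay inside the PBS range and the day-2 arrays lay below it. The changes were -1.12 ± 0.29, -0.67 ± 0.19 and -0.57 ± 0.18 (limma adjusted p = 0.0158, 0.0243 and 0.0338). With replicate 2 alone they were -0.01, 0.02 and 0.03, so the sign of Hadhb and Acaa2 turned for these probe sets. On replicate 2 the other Hadhb probe sets differed from their PBS mean by -0.74 and -0.47, and those of Acaa2 by 0.11 and -0.11. Hadha, the partner subunit of Hadhb, and Hadh, the medium- and short-chain hydroxyacyl-CoA dehydrogenase, differed by -0.23 to -0.58 on the day-2 arrays and did not pass. Hsd17b10, the dehydrogenase for branched and short chains, differed by -0.05, 0.03 and 0.14 on replicates 1, 2 and 3. Its other probe set differed by 0.72, -0.75 and 0.58.

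The auxiliary enzymes serve the unsaturated fatty acids. Eci1 and Eci2, the enoyl-CoA isomerases, and Decr1, the 2,4-dienoyl-CoA reductase, differed from the PBS mean by -0.07 to -0.42 on the day-2 arrays and by 0.02 to 0.08 on replicate 2, with 0 of 3 past the threshold. Electron transfer gave 2 falls among 3 genes. Etfa, the alpha subunit of the electron transfer flavoprotein, had 12.26, 12.38 and 12.37 after PBS and 10.83, 12.22 and 10.97 after LPS 3 h, and Etfdh, which passes the electrons to ubiquinone, had 11.83, 11.90 and 11.93 and then 11.07, 11.72 and 11.06. All LPS arrays of both genes lay below the PBS arrays, those of day 2 by far more. The changes were -1.0 ± 0.23 and -0.60 ± 0.14 (limma adjusted p = 0.00985 and 0.00849), and -0.12 and -0.16 with replicate 2 alone. Etfb, the beta subunit that pairs with Etfa in one protein, had 12.18, 12.18 and 12.30 after LPS and 12.07, 12.14 and 12.01 after PBS, with every LPS array above the PBS arrays. The change of Etfb was 0.15 ± 0.08 and did not pass.

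Of the regulators Ppara fell. It had 8.61, 8.74 and 8.74 after PBS and 7.46, 8.54 and 7.97 on the LPS 3 h replicates, all of them below the PBS arrays. The change was -0.71 ± 0.19 (limma adjusted p = 0.0178), and -0.16 with a 95% interval of -0.48 to 0.16 with replicate 2 alone. Ppargc1a had 9.31, 9.51 and 9.24 after PBS and 8.96, 9.14 and 8.30 after LPS, again with no overlap, and did not pass (-0.55, limma adjusted p = 0.0803). Among the remaining genes 0 of 5 passed. Acot2, a mitochondrial acyl-CoA thioesterase with the near-identical neighbour Acot1, had 11.53, 11.27 and 11.29 after LPS and 11.08, 11.16 and 11.29 after PBS. Mlycd, which removes the shuttle inhibitor malonyl-CoA, differed from its PBS mean by -0.50, -0.11 and -0.42 on replicates 1, 2 and 3. Acacb, which makes that inhibitor, differed by -0.25, 0.03 and -0.03, and Pnpla2, the triglyceride lipase, by -0.38, 0.06 and -0.50.

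In many of the genes the probe sets did not move together on the day-2 arrays. There were 15 of the 31 genes with at least 2 probe sets at or above the median level. The spread between the highest and the lowest change of a gene's probe sets had a median of 1.28 on replicate 1 and 1.11 on replicate 3, and 0.20 on replicate 2. It passed 1 log2 unit in 8 of the 15 genes on replicate 1, in 8 on replicate 3 and in 0 on replicate 2. Decr1 had the narrowest spread on the day-2 arrays, 0.12 on each. For Acot2 the probe set used above differed from the PBS mean by 0.35, 0.09 and 0.11 on replicates 1, 2 and 3, and another by -3.32, -0.03 and -2.77. Among the probe sets of Ppargc1a, one differed by 0.51, -0.23 and -0.20 and another by -3.02, -0.11 and -3.66. The widest spread of any of the 15 genes was 3.67 on replicate 1, 3.56 on replicate 3 and 0.78 on replicate 2. Of the genes that fell, Cd36 had a further probe set with differences of -1.65, -0.29 and -1.81, and the remaining one gave 0.33, -0.49 and 0.01. Hadhb had another probe set with 1.15, -0.47 and 0.74, and Crat had one with 0.54, -0.03 and 0.29, both above the PBS mean on the day-2 arrays. Every probe set of Ppara lay below the PBS mean there, by -0.59 to -1.49 on replicate 1 and -0.73 to -2.52 on replicate 3. So did every probe set of Acaa2, by -0.35 to -2.52 and -0.21 to -1.99. Where these probe sets lie along their transcripts was not examined.

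**Figure D3:**
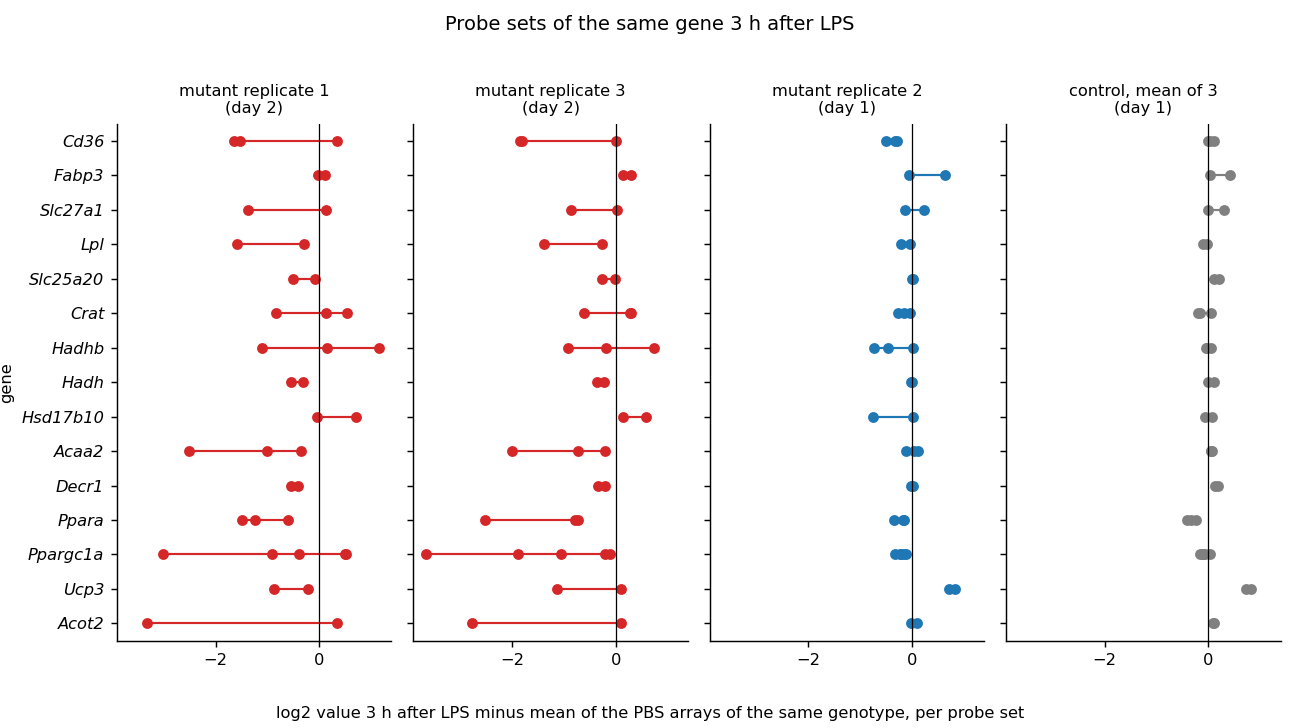
Change of each probe set 3 h after LPS, as log2 value minus the mean of the PBS arrays of the same genotype (horizontal axis), for the 15 fatty acid genes with 2 or more probe sets at or above the median level (vertical axis); points are probe sets, lines join those of a gene, and panels are the 3 mutant arrays and the mean of the control arrays. The lines are long on replicates 1 and 3 (median spread 1.28 and 1.11) and short on replicate 2 (0.20).

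The genotypes were compared within each condition to ask what loss of Kir6.1 does to the pathway. After PBS the control arrays and mutant replicate 3 shared a lot, and mutant replicates 1 and 2 came from another. At 3 h after LPS no lot held both genotypes, and mutant replicate 2 had a lot of its own. Lot and genotype cannot be told apart at that time, and the part of lot was not tested. After PBS 0 of 31 genes passed by limma, with 0.0165% of all genes past the threshold. An unadjusted p below 0.05 was found for 1 member and for 2272 of all 45037 probe sets. The median difference, mutant minus control, was 0.00, and 0.01 over all genes. Arrays of the 2 genotypes did not overlap in 5 of 31 genes (22.6% of all genes), with Cpt1a, Slc25a20 and Pnpla2 higher and Echs1 and Ppara lower in mutants. Ppara had 9.0, 9.08 and 9.11 in controls and 8.61, 8.74 and 8.74 in mutants, every mutant array below every control array. The difference of -0.37 ± 0.11 had a limma adjusted p of 0.191 without the day-2 arrays. At 30 min after LPS 0 of 31 passed (0.0165% of all genes). Of the 31, 1 had an unadjusted p below 0.05, as did 1824 of all 45037 probe sets. The arrays did not overlap in 8 of 31 (22.7% of all genes), with Slc25a20 and Eci2 higher and Acadm, Acads, Hsd17b10, Echs1, Etfa and Etfb lower in mutants. Ppara overlapped there, with 8.75, 8.59 and 8.82 in controls and 8.83, 8.67 and 8.48 in mutants.

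At 3 h after LPS 12 of 31 genes were lower and 0 higher in mutants than in controls with all arrays, against 13.2% of all genes lower. They were Cd36, Cpt2, Crat, Acadm, Acadl, Hadhb, Echs1, Acaa2, Decr1, Etfa, Etfdh and Ppara, with differences from -0.25 for Acadl to -1.24 for Echs1. The count was 5 without control LPS 3 h replicate 1 (4.17% of all genes lower), and 6, 23 and 1 without mutant replicates 1, 2 and 3 (9.89%, 20.0% and 2.80%). With replicate 2 as the mutant array 0 of 31 passed (1.61% of all genes lower) and 0 had an unadjusted p below 0.05. The 12 differences then ran from -0.29 for Ppara and -0.22 for Cd36 to -0.03 for Acadm and -0.02 for Hadhb. The 95% intervals of 25 of the 31 differences lay within 0.5 log2 units of 0, the exceptions being Cd36, Cpt1a, Ppara, Ppargc1a, Slc27a1 and Ucp3. The test of the difference between the LPS 3 h effects of the genotypes passed for 0 of 31 (0.159% of all genes). Its unadjusted p was below 0.05 for 16 of the 31 and for 10018 of all 45037 probe sets. Cd36 had the smallest adjusted p, 0.107 by limma, with a difference of effects of -1.27. A difference between the mutant and control effects was thus not shown for any of the 31 with all arrays, and without mutant LPS 3 h replicate 2 it passed for 20, all lower, against 17.2% of all genes lower.

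The LPS 30 min arrays were all hybridized on day 3 and came from a lot of their own, and the PBS arrays were hybridized on day 1. The PBS hearts were taken after 3 h, and no group had PBS for 30 min. LPS, time after treatment, hybridization day and lot therefore cannot be told apart in this comparison. It also shares its PBS arrays with the 3 h comparison. In controls 0 of 31 genes passed by limma (0.0934% of all genes). An unadjusted p below 0.05 was found for 3 of the 31 and for 3699 of all 45037 probe sets. The arrays did not overlap in 9 of 31 (29.6% of all genes). Slc25a20, Acadm, Hsd17b10 and Echs1 were higher at 30 min and Crat, Acads, Ppara, Ppargc1a and Acot2 lower. Ppargc1a had 9.08, 9.12 and 9.31 against 9.40, 9.46 and 9.60 after PBS, and Ppara had 8.75, 8.59 and 8.82 against 9.0, 9.08 and 9.11. In mutants 0 of 31 passed (0.0275% of all genes). Of the 31, 2 had an unadjusted p below 0.05, as did 3024 of all 45037 probe sets. The arrays did not overlap in 4 of 31 (23.5% of all genes), Crat, Acads, Eci1 and Acot2, all lower.

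Crat, Acads and Acot2 were lower at 30 min without overlap in both genotypes. Acads had 10.54, 10.59 and 10.78 after PBS and 10.26, 10.33 and 10.41 at 30 min in controls, and 10.68, 10.65 and 10.49 and then 10.14, 10.20 and 10.13 in mutants. It was the 1 gene of 31 that passed once the day-2 arrays were left out, where 0.726% of all genes passed. That was in mutants, with a change of -0.45 ± 0.08 (limma adjusted p = 0.0173). In controls the change was -0.30 ± 0.08 (limma adjusted p = 0.0744), and the difference between the genotypes in this effect was not tested. Crat had 10.26, 10.26 and 10.28 and then 10.13, 9.99 and 10.09 in controls, and 10.36, 10.28 and 10.26 and then 10.20, 9.83 and 9.73 in mutants. On the control arrays of 3 h both genes overlapped their PBS values: Acads had 10.57, 10.68 and 10.54 and Crat had 10.24, 10.41 and 10.30. Adipocyte markers had means of 5.68 to 6.23 on the 30 min arrays and 5.06 to 5.49 on the PBS arrays. Their part in these values was not tested.

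A further 102 measured genes around the pathway were read from the same fits, in 7 lists for uptake and activation, lipid droplets, peroxisomal oxidation, other mitochondrial acyl-CoA enzymes, PPAR targets and ketone genes, transcriptional control, and malonyl-CoA and AMPK. With all arrays 30 of the 102 fell and 12 rose in mutants 3 h after LPS, where 16.1% of all genes fell and 9.90% rose, and with replicate 2 alone 9 fell and 9 rose (6.06% of all genes fell and 5.29% rose). Falls with all arrays included the ketone-body enzyme Acat1 (-0.99) and the carnitine transporter Slc22a5 (-0.58), which differed by -0.07 and -0.06 on replicate 2. They also included the peroxisomal carnitine octanoyltransferase Crot (-0.92) and the transcription factor Gabpa (-1.85), which differed by -0.69 and -0.97 on replicate 2 and passed there too. In controls 3 h after LPS 0 of the 102 passed (0.775% of all genes). The unadjusted p was below 0.05 for 11 of the 102 and for 4736 of all 45037 probe sets. Without the day-2 arrays, where 3.96% of all genes passed, 4 rose and 3 fell in controls, namely Cidea, Lipe, Acsl5 and Plin2, and Fabp5, G0s2 and Acsl3.

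Of these 7 genes Plin2, Lipe and G0s2 belong to the lipid droplet list. Plin2, the coat protein of lipid droplets, had 9.63, 9.73 and 9.94 after PBS and 10.19, 10.33 and 10.26 after LPS 3 h in controls, and in mutants 9.99 to 10.07 and then 9.53, 10.49 and 9.89. It was higher on all 3 control LPS arrays and on mutant replicate 2, and lower on the day-2 arrays. Without those the changes were 0.49 ± 0.08 in controls and 0.47 ± 0.11 in mutants (limma adjusted p = 0.0058 and 0.0184). G0s2, the inhibitor of the lipase encoded by Pnpla2, fell by 0.58 in controls (limma adjusted p = 0.0233 without the day-2 arrays), and in mutants it differed by 0.37, -0.22 and 0.53 on replicates 1, 2 and 3. Lipe, hormone-sensitive lipase, rose by 0.62 in controls and by 0.81 on mutant replicate 2 in the same fit (limma adjusted p = 0.0352 and 0.0243), and it differed by -1.23 and -0.30 on the day-2 arrays. Adipocytes hold much of both Plin2 and Lipe, and adipocyte markers had means of 5.26 to 6.08 on the control LPS 3 h arrays and 5.06 to 5.49 on the control PBS arrays. Their part in these changes was not tested.

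Angptl4, a lipoprotein lipase inhibitor and PPAR target, had 6.87, 6.37 and 7.17 in control PBS hearts and 7.74, 8.17 and 8.43 in control LPS 3 h hearts, without overlap. The change was 1.31 ± 0.35 and did not pass (limma adjusted p = 0.0566 without the day-2 arrays). Mutant PBS hearts had 8.67, 7.77 and 7.55, above all control PBS arrays, and mutant LPS 3 h hearts had 7.76, 8.19 and 7.44. The genotypes differed after PBS by 1.2 ± 0.35 (limma adjusted p = 0.196 without the day-2 arrays). Pdk4, the kinase that turns pyruvate dehydrogenase off when fat is burned, had 11.57, 10.90 and 12.31 after PBS, 10.12, 11.04 and 11.16 at 30 min and 12.18, 12.44 and 12.22 at 3 h in controls. The PBS arrays spanned more than the difference, and Pdk4 did not pass in any comparison.

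**Figure D4:**
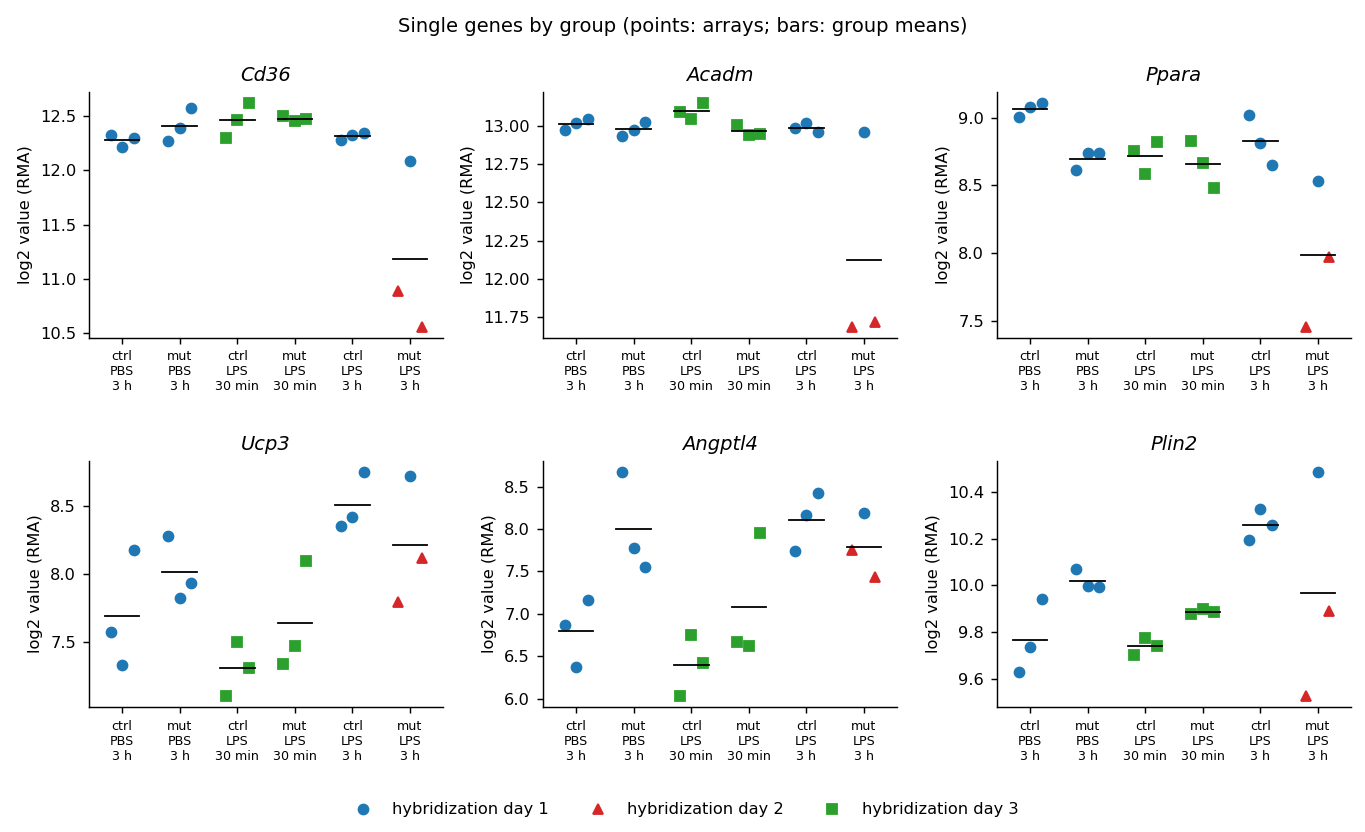
Log2 values (vertical axes) of Cd36, Acadm, Ppara, Ucp3, Angptl4 and Plin2 by group (horizontal axes); points are arrays, marked by hybridization day, and bars are group means of 3 arrays. For Cd36 and Acadm the mutant LPS 3 h mean lies between replicate 2 (12.09 and 12.96) and the day-2 arrays (10.56 to 10.89 and 11.69 to 11.72), and for Ucp3 and Plin2 replicate 2 lies with the control LPS 3 h arrays.

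At 30 min and after PBS a few of the 102 genes passed when the day-2 arrays were left out. In controls at 30 min 6 rose and 1 fell, with 2.24% of all genes past the threshold. They were Mef2c, Acsl5, Prkab2, Mcee, Prkag2 and Acsl6, and the fall was Ppard, the PPAR of broad expression, at -0.48. After PBS Acsl5, an acyl-CoA synthetase, and Prkab2, an AMPK subunit, were higher in mutants by 0.41 and 0.69 (limma adjusted p = 0.0357 and 0.0157, with 0.357% of all genes past the threshold). Prkab2 had 8.34, 8.37 and 8.47 in control PBS hearts and 9.3, 8.99 and 8.97 in mutant PBS hearts. The fat-synthesis gene Fasn had 7.12, 9.42 and 7.91 on mutant LPS 3 h replicates 1, 2 and 3, next to 6.91 to 6.99 on mutant PBS arrays. Acaca had 7.03, 7.93 and 7.56, next to 6.26 to 6.4. All 3 LPS arrays lay above the PBS arrays for both genes, replicate 2 by most. That array also had the highest adipocyte marker mean, whose part in these values was not tested.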

How the data were processed

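Heart RNA was measured on 18 Affymetrix Mouse Genome 430 2.0 arrays. What the authors deposited are log2 values from RMA, per the submitters' processing notes, with its version not given in the sources used here. RMA pools probes after background correction and compresses small differences of dim probe sets. The other text fields used, per the labels and the deposited experiment files, gave hybridization day and array lot. Depth does not apply to arrays, whose number limits the precision.

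All 45037 non-control probe sets were fitted with limma 3.58.1 in R 4.3.3, with 6 group means, 18 arrays and 12 residual degrees of freedom, and p-values were adjusted by Benjamini-Hochberg within each of 8 comparisons (threshold 0.05). Errors are standard errors of the fit. The annotation gave 1 symbol to 34945 probe sets, several to 932 and none to 9160, and 0 symbols were updated. Alternatives included other scalings, a filter, array weights, day and replicate blocks, and leaving out arrays. The fit was tested on simulated data. Members and lists were chosen with earlier results of these data known. Genes were named by a rule: all members, those past the threshold in the 7 other lists (up to 4 by size), and Pdk4, Angptl4 and Plin2. Promoter sequences are from RefSeq, build GRCm38.p6.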

Additional observations from a re-analysis of the deposited data

How the results depend on the processing

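For LPS 3 h in mutants and for mutants against controls at 3 h, where 11 and 12 passed with all arrays, the count was 0 with only the arrays compared (0.258% and 0.00550% of all genes), with hybridization day as a block, with arrays of 1 day, and without mutant LPS 3 h replicates 1 and 3. Leaving out 1 array at a time gave 2 to 22 for the first and 1 to 23 for the second. Array weights gave 1 for LPS 3 h in controls (5.52% of all genes), 3 for LPS 30 min in each genotype (8.76% in controls, 4.71% in mutants), 1 for the genotypes at 30 min (3.58%) and 11 for the difference of effects (16.9%), where leaving out 1 array gave 0 to 20 (20 without mutant LPS 3 h replicate 2). With only the arrays compared 1 passed for LPS 30 min in each genotype (6.82% and 1.18% of all genes), and without mutant LPS 3 h replicates 1 and 3 it was 1 for mutants at 30 min. Hadhb and Acaa2 turned to 0.0233 and 0.0323 for LPS 3 h in mutants with the day block, with arrays of 1 day and without replicates 1 and 3. Acot2, by the mean of its probe sets, turned to -0.93 for LPS 3 h in mutants and -1.05 against controls. Quantile normalization, centring on the median and the filter on dim probe sets left every count within 1.5 times. The widest move was from 12 to 18 for mutants against controls at 3 h with centring, where 3082 of all 18193 genes were lower. Of the 23 gene results past the threshold, 208 of the values under alternatives stayed past it, 154 did not and 6 turned. These totals count each setting that rests on replicate 2 alone separately. The causes were not tested.

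Replicate numbers were not shown to pair the samples: correlations of same-numbered deviations ran from -0.13 to 0.36, with some under 0.1 in every comparison. Their mean lay above that of differently numbered arrays in every comparison but LPS 30 min in controls. For LPS 30 min in mutants the means were 0.11 and -0.05, and for LPS 30 min in controls -0.01 and 0.00. With the replicate number as a block 11 genes passed in each of the 2 LPS 3 h comparisons above and 0 in the others. With this block 2874 of all 18193 genes fell with LPS 3 h in mutants. Against controls at 3 h 2267 were lower. LPS 30 min against PBS could not be fitted within a day or with a day block.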
